A study of Mus musculus with 6 samples.

Results

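The enzymes that build triglyceride from glycerol 3-phosphate were followed in induced brown adipocytes of U-IRX3ov and control mice. They are the 10 genes Gpam, Agpat1, Agpat2, Agpat3, Agpat5, Lpin1, Lpin2, Lpin3, Dgat1 and Dgat2, picked by symbol from the 46095 rows of the deposited count table, and all 10 had a row. The cells came from C57BL/6 mice aged 5 weeks: the stromal vascular fraction of brown fat, the non-adipocyte cells of the tissue, was grown to confluence and induced for 8 days. Both groups, 3 control and 3 U-IRX3ov libraries, received insulin, dexamethasone, rosiglitazone, triiodothyronine and IBMX at first, and then insulin, rosiglitazone and triiodothyronine, so the PPARG agonist rosiglitazone was present in the controls too. U-IRX3ov is the only genotype label beside control, the titles call its libraries KI, and neither the driver of the IRX3 sequence nor the number of animals or cultures behind a library is given in the sources used here. The p-values therefore measure the spread between these 6 libraries, which may be technical.

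Triglyceride is made mostly in the endoplasmic reticulum by adding fatty acids to glycerol 3-phosphate one at a time. Glycerol-3-phosphate acyltransferases such as GPAM make lysophosphatidic acid, AGPAT enzymes turn it into phosphatidic acid, lipins remove the phosphate to give diacylglycerol, and DGAT1 or DGAT2 adds the last acyl chain. Brown adipocytes store triglyceride in many small droplets and draw on it as fuel for heat. Loss of AGPAT2 in people and of lipin 1 in mice leaves little fat tissue.

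Each step had a member that rose in U-IRX3ov cells, and the AGPAT, lipin and DGAT steps also had members that did not. Lpin1 rose 1.70-fold, Agpat2 1.39-fold, Dgat1 1.33-fold, Gpam 1.29-fold and Agpat3 1.25-fold. Lpin2, Lpin3, Agpat5 and Dgat2 did not pass the test, and Agpat1 had too few counts to be tested. Of the 9 tested enzymes 5 were higher and 0 lower, where 41.3% of all 14757 genes tested passed, 20.2% higher and 21.1% lower (edgeR quasi-likelihood test, adjusted p under 0.05). The same 5 of 9 had groups that did not overlap, all higher, where 50.8% of all genes tested did not overlap and 24.9% were higher without overlap. The median log2 fold change was 0.32 over the 9 enzymes and -0.005 over all genes tested. The enzymes together held 2191 to 2231 CPM (counts scaled to a common library total) in the control libraries and 3011 to 3081 CPM in the U-IRX3ov libraries.

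Library totals ran from 20094799 to 26755870 counts, and CPM values here are scaled by TMM, a factor that corrects a library's total for its most uneven genes. Irx3, the gene in the genotype's name, had 131, 142 and 138 counts in control and 163, 123 and 114 in U-IRX3ov libraries (log2 fold change 0.27 ± 0.13 SE, edgeR adjusted p = 0.112), so the table's Irx3 counts do not separate the groups, and whether reads of the construct fall on this row is not known. Adipocyte markers were abundant in every library, at a summed 27771 to 28494 CPM in control and 34754 to 36220 CPM in U-IRX3ov cells, with 7 of 8 higher and a median of 0.29. Beside this and the marker lists that follow, 20.2% of all genes tested were higher and 21.1% lower. In the same libraries 10 of 11 tested fibroblast and preadipocyte markers were lower (median -0.61, summed 6915 to 7080 CPM against 4154 to 4500 CPM). The 9 tested macrophage and leukocyte markers were all lower (median -1.33, summed 444 to 547 CPM against 142 to 214.0 CPM), while the lymphocyte genes Cd3e and Cd79a had at most 3 counts in any library. Endothelial markers had 4 of 7 higher (median 0.85, summed 19.6 to 23.2 CPM against 39.2 to 44.4 CPM). Pericyte and smooth muscle markers, taken as 1 list, had 5 of 7 lower and 1 higher (median -0.68, summed 4616 to 4849 CPM against 2875 to 3186 CPM). Most of that sum was the smooth muscle gene Acta2, which fell from a mean of 2949.5 to 1819.5 CPM. The pericyte genes went different ways. Cspg4 rose (log2 fold change 0.651 ± 0.065 SE), Rgs5 fell from a mean of 2.32 to 1.06 CPM (-1.14 ± 0.28) and Notch3 did not pass (0.045 ± 0.054). No change of pericytes in either direction is read from this list. Skeletal muscle markers summed to 21.4 to 25.1 CPM and 18.4 to 21.9 CPM, almost all from 2 of the 7 genes, where Des rose, Acta1 fell and Myf5 was at 0 in every library. Mesothelial and epithelial markers summed to 17.0 to 19.4 CPM and 22.7 to 27.8 CPM, with 1 of 2 tested members higher, too few to read. A higher share of adipocytes and more enzyme RNA per adipocyte cannot be told apart in such bulk libraries, and the part of these markers in the enzymes' changes was not tested.

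Promoter sequences are shown for the 3 enzymes that carry the contrast below: Lpin1, which rose most, its paralog Lpin2, which did not pass, and Agpat2, the most abundant member. RefSeq entries of build GRCm38.p6 matched 7 of the 10 genes, and the windows are the 250 bases before an annotated start, 5′ to 3′ on the gene's strand. The search covered both strands for the Iroquois site ACANNTGT, the PPAR-RXR site (AGGTCA repeated after 1 free base), the sterol regulatory site TCACNCCAC, the E-box CACGTG, the CCAAT box CCAAT and the GC box GGGCGG. Capitals mark the matches. The Lpin1 window is chr12:16610967-16611216 (minus strand), that of the first of 3 Lpin2 starts chr17:71183282-71183531 (plus strand) and that of Agpat2 chr2:26604418-26604667 (minus strand).
Lpin1: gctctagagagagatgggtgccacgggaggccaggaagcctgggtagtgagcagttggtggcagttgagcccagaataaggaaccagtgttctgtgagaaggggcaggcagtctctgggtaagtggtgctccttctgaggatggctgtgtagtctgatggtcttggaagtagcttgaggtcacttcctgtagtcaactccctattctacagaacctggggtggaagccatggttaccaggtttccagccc
Lpin2: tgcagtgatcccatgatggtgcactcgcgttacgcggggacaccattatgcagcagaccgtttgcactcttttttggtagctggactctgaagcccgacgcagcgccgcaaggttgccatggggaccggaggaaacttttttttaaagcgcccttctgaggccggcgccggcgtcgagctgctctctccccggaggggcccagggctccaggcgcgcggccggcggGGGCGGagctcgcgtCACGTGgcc
Agpat2: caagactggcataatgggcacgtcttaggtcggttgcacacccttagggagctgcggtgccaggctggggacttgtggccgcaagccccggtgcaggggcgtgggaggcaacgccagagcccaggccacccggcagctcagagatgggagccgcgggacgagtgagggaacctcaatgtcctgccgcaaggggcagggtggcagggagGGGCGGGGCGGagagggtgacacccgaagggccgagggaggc

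The Lpin1 window held none of the 6 motifs and 1 CpG dinucleotide, against 26 CpG in the Lpin2 window shown and 16 in the Agpat2 window, where the median over 32851 promoters was 6. The other Lpin2 starts differed widely, with 50 CpG and 83.2% GC before the next start and 3 CpG and 44.8% GC before the last, so Lpin2 as a gene has no single value to set against Lpin1. Agpat2 had 2 GC boxes that share 1 base, starting 42 and 37 bases before the start, and the Lpin2 window shown had a GC box 24 bases and an E-box 9 bases before it. The window before the last Lpin2 start held 3 CCAAT boxes, 233, 165 and 57 bases before it. Over all promoters of this length 32.7% held a GC box, 33.8% a CCAAT box, 6.02% an E-box, 6.31% the Iroquois site, 1.05% the sterol regulatory site and 0.0335% the PPAR-RXR site. None of the windows of the 7 enzymes held the Iroquois, PPAR-RXR or sterol regulatory letters, which says only that these letters are not in these windows. A CCAAT box stood 74 bases before the upstream start of Gpam.

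The first acylation is carried out in mitochondria by GPAM and in the endoplasmic reticulum by GPAT3 and GPAT4. Gpam lies on chromosome 19 at 55067268 to 55127238 of mm10 (minus strand). It had 229.9, 232 and 232 CPM in the control libraries and 291, 302 and 298 CPM in the U-IRX3ov libraries. Every U-IRX3ov library lay above every control library, and the gap between the groups was wider than the range within either. The log2 fold change was 0.36 ± 0.035 (SE, edgeR adjusted p = 2.10e-09). Gpat4, from the list of other acyltransferases, averaged 193 ± 3.71 CPM in the controls (SD, n = 3) against 225 ± 7.65 CPM, a rise of 0.22 ± 0.04 on the log2 scale (SE, edgeR adjusted p = 2.07e-05). Gpat3, named Agpat9 in the table, had 108 ± 6.84 and 104 ± 5.50 CPM and did not pass (-0.065 ± 0.048, edgeR adjusted p = 0.299). The log2 ratio of Gpam to Gpat4 counts was 0.23, 0.29 and 0.27 in control and 0.32, 0.47 and 0.43 in U-IRX3ov libraries. The groups did not overlap, but control library 2 and U-IRX3ov library 1 were only a little apart. This ratio changed by 0.14 ± 0.05 (SE, exact two-sided permutation p = 0.1 over 3 against 3 libraries, the smallest that this design can give, and 0.1 after adjustment over the 6 ratios examined).

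**Figure D1:**
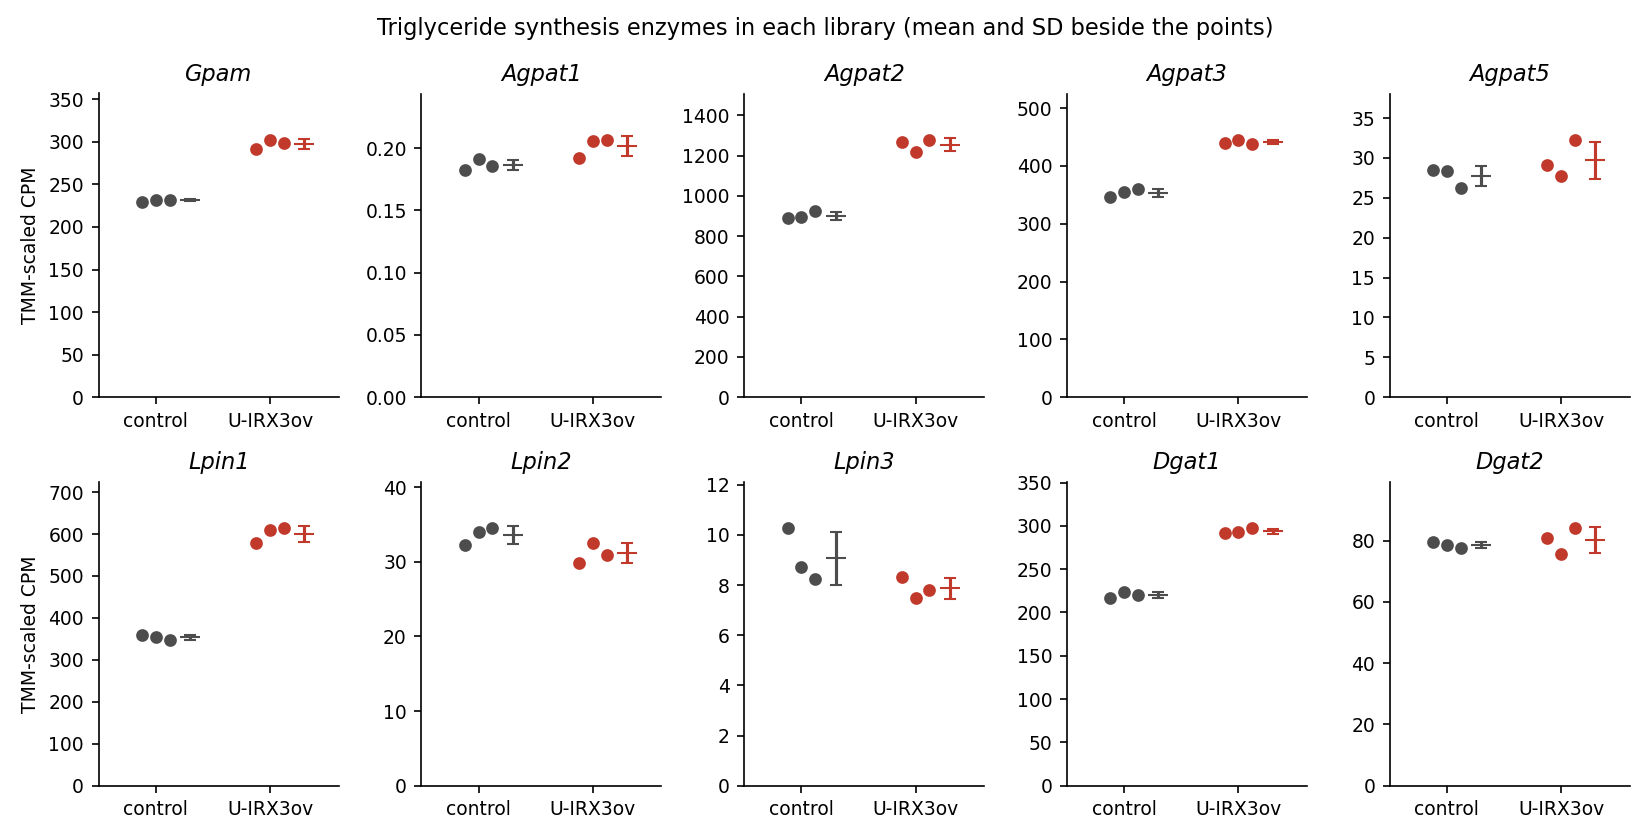
TMM-scaled CPM of each of the 10 enzymes (vertical axes from 0, a scale per gene) in the 3 control (grey) and 3 U-IRX3ov (red) libraries, with the mean and SD beside the points. Gpam, Agpat2, Agpat3, Lpin1 and Dgat1 are separated between the groups, Agpat5, Lpin2, Lpin3 and Dgat2 overlap, and the Agpat1 panel rests on 4 or 5 counts a library.

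Of the 4 AGPAT genes followed, Agpat2 had the highest level. Agpat2, on chromosome 2 at 26593057 to 26604417 (minus strand), had 889, 892 and 925 CPM in control and 1266, 1218 and 1278 CPM in U-IRX3ov libraries. The lowest U-IRX3ov library stood well above the highest control library. Its log2 fold change was 0.475 ± 0.034 (SE, edgeR adjusted p = 5.31e-12). Egfl7 on the other strand shares 64 of the 2130 exon bases of Agpat2 but had at most 118 counts in any library, against at least 23361 for Agpat2. Agpat3, which acylates lysophosphatidic acid in the endoplasmic reticulum and Golgi, lies on chromosome 10 at 78269178 to 78352489 (minus strand). Its values were 346, 355 and 360.1 CPM in control and 439, 445 and 439 CPM in U-IRX3ov libraries, again with no overlap (log2 fold change 0.32 ± 0.03, edgeR adjusted p = 1.35e-08). Agpat5, a mitochondrial member on chromosome 8 at 18846277 to 18891361 (plus strand), had 28.5, 28.3 and 26.2 CPM in control and 29.1, 27.7 and 32.3 CPM in U-IRX3ov libraries. These ranges overlapped, the log2 fold change of 0.10 ± 0.07 did not pass (edgeR adjusted p = 0.262), and folds of 0.939 to 1.22 lie within its 95% interval. An antisense gene, Gm35934, covers 18.95% of the Agpat5 exon bases and had 0 counts in the table.

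Agpat1, the widely expressed AGPAT encoded in the major histocompatibility region, was nearly absent from the table. It lies on chromosome 17 at 34604262 to 34613449 (plus strand) and had 5, 5 and 5 counts in control and 5, 4 and 4 in U-IRX3ov libraries. These counts are too few to read a direction from, and the gene was not among those tested. The table was as empty around it: of 13 protein-coding genes within 100 kb, Agpat1 included, 12 had at most 10 counts in every library, where 36.7% of all 20609 annotated protein-coding genes in the table did. Pbx2 had 1 or 2 counts, Atf6b 0 to 2 and the ubiquitin ligase gene Rnf5 0 in every library. The exception, Tnxb, had 20, 8 and 8 counts in control and 6, 4 and 4 in U-IRX3ov libraries. How the authors counted reads in this region is not given in the sources used here, and the Agpat1 row cannot be taken as the gene's level.

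Within the AGPAT step, Agpat2 gained slightly on Agpat3. Their log2 count ratio was 1.36, 1.33 and 1.36 in control and 1.53, 1.45 and 1.54 in U-IRX3ov libraries, a change of 0.16 ± 0.03 (SE) without overlap (exact two-sided permutation p = 0.1, the smallest possible). Per kilobase of merged exons, Agpat2 made up 89.8% ± 0.12 of the summed RNA of Agpat1, Agpat2, Agpat3 and Agpat5 in control and 90.8% ± 0.26 in U-IRX3ov cells (SD, n = 3), and Agpat3 9.63% ± 0.10 and 8.74% ± 0.27. These shares leave out Agpat4 and take Agpat1 at its 4 or 5 counts. The ratio of Agpat2 to Agpat1 changed by 0.36 ± 0.05, a value that rests on the 4 or 5 counts of Agpat1 and is not read further.

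Among the 6 ratios examined, the changes of Lpin1 against its paralogs were the largest. Lipins are phosphatidate phosphatases, and lipin 1, the main form of fat tissue, also acts in the nucleus as a coregulator of PPAR and PGC-1 factors. Lpin1 lies on chromosome 12 at 16535669 to 16610966 (minus strand), with no annotated gene overlapping it. It had 359, 355 and 347 CPM in control and 579, 609.5 and 614 CPM in U-IRX3ov libraries. All 3 U-IRX3ov libraries lay far above the controls, and the first was the lowest of them. Its log2 fold change was 0.76 ± 0.035 (SE, edgeR adjusted p = 7.74e-16), the largest of the 9 tested enzymes, and 3.5% of all genes tested had a larger one.

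Lpin2, the lipin best known from liver and brain, lies on chromosome 17 at 71182560 to 71249817 (plus strand). Its values were 32.2, 34.0 and 34.5 CPM in control and 29.9, 32.5 and 30.9 CPM in U-IRX3ov libraries. One U-IRX3ov library stood above the lowest control, and the log2 fold change of -0.11 ± 0.06 did not pass (edgeR adjusted p = 0.165, 95% interval of the fold 0.820 to 1.05). Lpin3, the third lipin, on chromosome 2 at 160880670 to 160906002 (plus strand), had 10.3, 8.71 and 8.24 CPM in control and 8.31, 7.49 and 7.80 CPM in U-IRX3ov libraries. With 146 to 281 counts a library it was the least precise tested member: counting alone gives a coefficient of variation of 6.41% in control, where 11.7% was seen. Its log2 fold change was -0.20 ± 0.12 (edgeR adjusted p = 0.179, 95% interval of the fold 0.693 to 1.09). Both genes passed as lower when libraries were scaled by their totals alone (Lpin2 -0.21, adjusted p = 0.00914, and Lpin3 -0.30, adjusted p = 0.0414), a scaling that moved the median of all genes from -0.005 to -0.10.

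The difference between lipins did not depend on that scaling, since a ratio of 2 genes is taken within each library. The log2 ratio of Lpin1 to Lpin2 counts was 3.48, 3.38 and 3.33 in control and 4.28, 4.23 and 4.31 in U-IRX3ov libraries, a change of 0.87 ± 0.05 (SE), or 1.83-fold. That of Lpin1 to Lpin3 was 5.13, 5.35 and 5.40 in control and 6.12, 6.35 and 6.30 in U-IRX3ov libraries, a change of 0.96 ± 0.11, or 1.95-fold. In both ratios the groups were far apart relative to their spread, and both had the exact two-sided permutation p of 0.1 that is the smallest possible. Per kilobase of merged exons, Lpin1 made up 87.6% ± 0.23 of lipin RNA in control and 93.0% ± 0.24 in U-IRX3ov cells (SD, n = 3), Lpin2 6.57% ± 0.35 and 3.81% ± 0.11, and Lpin3 5.87% ± 0.57 and 3.19% ± 0.26. Summed lipin RNA went from 41.8 ± 0.83 to 66.8 ± 1.95 CPM per kilobase.

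**Figure D2:**
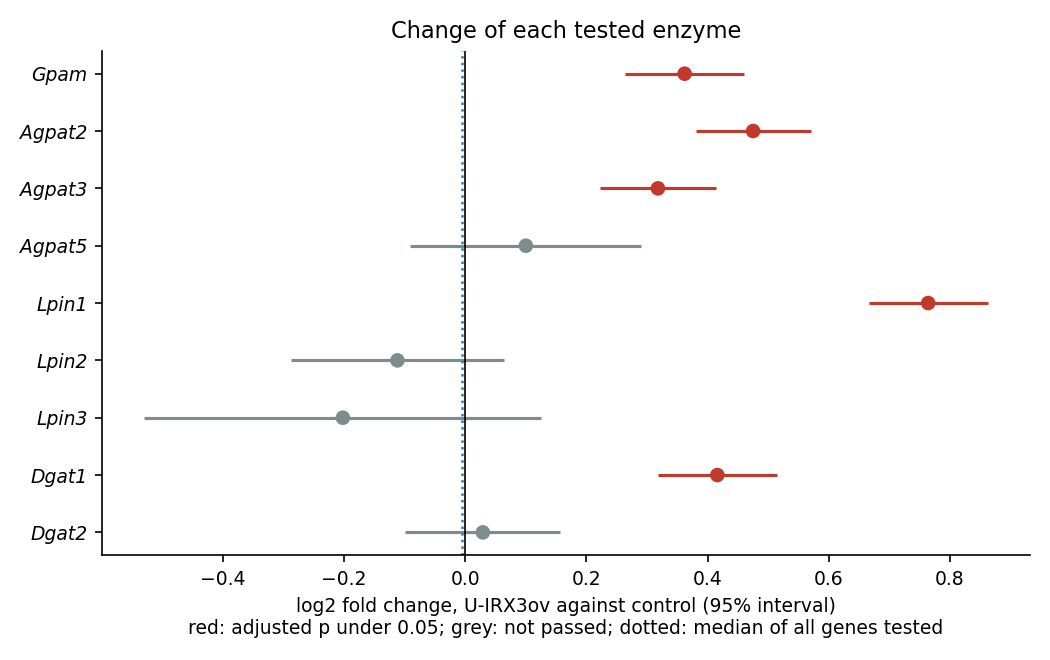
Log2 fold change of U-IRX3ov against control (horizontal axis) for the 9 tested enzymes, with 95% intervals from 4 residual degrees of freedom. Lpin1 stands highest at 0.76, Gpam, Agpat2, Agpat3 and Dgat1 lie between 0.32 and 0.475, and the intervals of Agpat5, Lpin2, Lpin3 and Dgat2 include 0.

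The last step is shared by DGAT1 and DGAT2, which belong to unrelated protein families, DGAT1 being linked to re-esterification of fatty acids taken up or released by lipolysis and DGAT2 to newly made ones. Dgat1, on chromosome 15 at 76502015 to 76511953 (minus strand), had 216, 224 and 220.2 CPM in control and 291, 293 and 297 CPM in U-IRX3ov libraries. The 3 libraries of each group were close together and the groups did not overlap (log2 fold change 0.42 ± 0.035 SE, edgeR adjusted p = 1.46e-10). Dgat2, on chromosome 7 at 99153658 to 99182719 (minus strand), had 79.5, 78.6 and 77.5 CPM in control and 80.9, 75.4 and 84.0 CPM in U-IRX3ov libraries. Its U-IRX3ov libraries spread to both sides of the controls. The log2 fold change of 0.03 ± 0.05 did not pass (edgeR adjusted p = 0.646), and the 95% interval of the fold, 0.934 to 1.12, does not reach the 1.33-fold of Dgat1.

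The log2 ratio of Dgat2 to Dgat1 counts was -1.45, -1.51 and -1.51 in control and -1.85, -1.96 and -1.82 in U-IRX3ov libraries. All U-IRX3ov values lay below all control values, a change of -0.39 ± 0.05 (SE, exact two-sided permutation p = 0.1, the smallest possible). Per kilobase of merged exons, Dgat2 made up 26.1% ± 0.49 of DGAT RNA in control and 21.3% ± 0.82 in U-IRX3ov cells (SD, n = 3). Summed DGAT RNA went from 97.5 ± 1.11 to 122 ± 2.13 CPM per kilobase.

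Levels of different genes can be compared only per length, here as CPM per kilobase of all exons of a gene merged. In control cells Agpat2 led with 423 ± 9.37 CPM per kilobase, followed by Dgat1 with 72.0 ± 1.22, Agpat3 with 45.4 ± 0.92, Lpin1 with 36.6 ± 0.65, Gpam with 34.7 ± 0.19 and Dgat2 with 25.5 ± 0.32 (SD, n = 3). The lowest measured levels were those of Lpin2 (2.75 ± 0.10), Agpat5 (2.57 ± 0.12) and Lpin3 (2.46 ± 0.29), whose control ranges overlapped, so their order is not resolved with this length. In U-IRX3ov cells Lpin1 stood at 62.2 ± 1.97 and Agpat3 at 56.6 ± 0.47 CPM per kilobase, so these neighbours changed places. With the length of the longest protein-coding transcript in place of merged exons, a choice made after seeing the data, Lpin1 (63.4) already stood above Agpat3 (59.1) in control, and that change of order was not seen. By the longest transcript Lpin2 (5.955) also stood apart from Lpin3 (2.614) and Agpat5 (2.569) in control, so its place near them depends on the length used. Agpat2 stayed first and Dgat1 the next under both lengths.

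**Figure D3:**
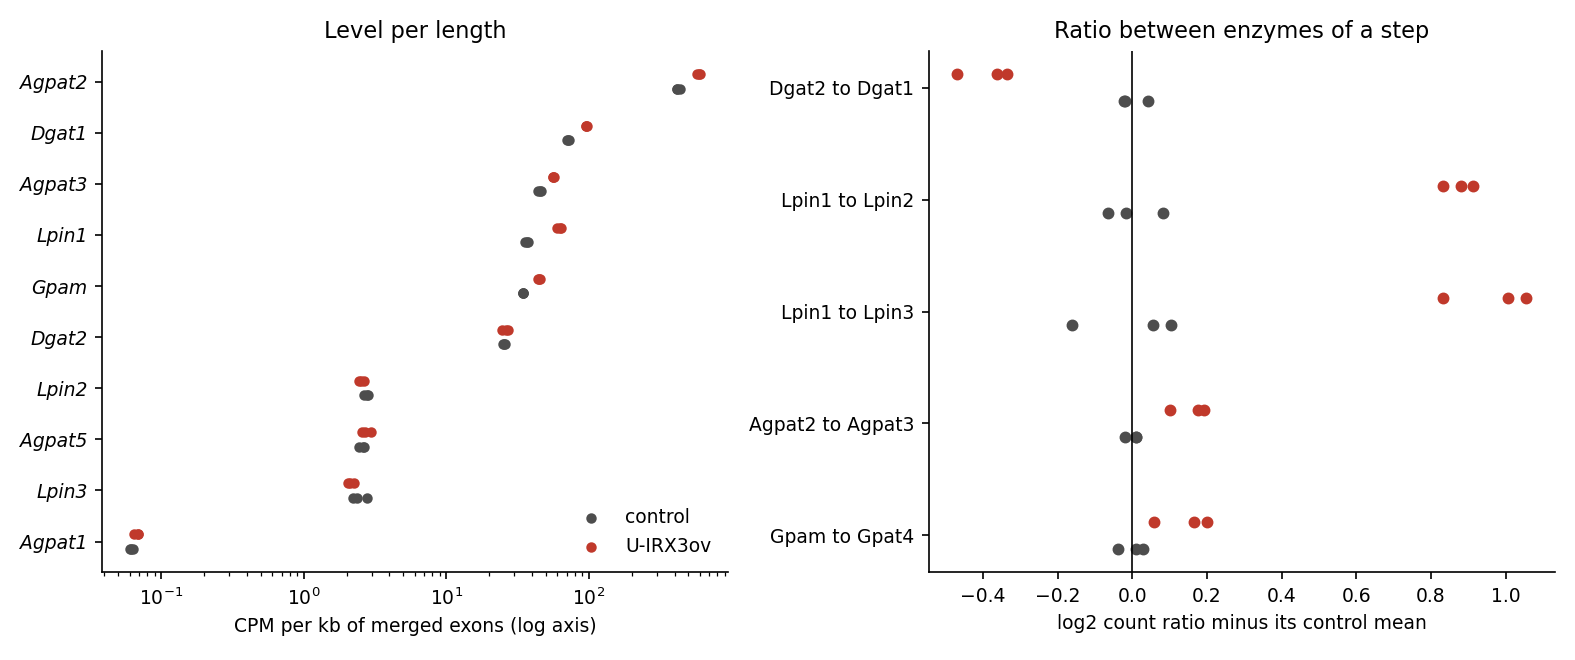
Left, CPM per kilobase of merged exons (log axis) of the 10 enzymes in each control (grey) and U-IRX3ov (red) library. Right, log2 count ratios between enzymes of 1 step minus the control mean of each ratio, a point per library, with Lpin1 to Lpin2 shifted by 0.87, Lpin1 to Lpin3 by 0.96 and Dgat2 to Dgat1 by -0.39.

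The pathway draws on glycerol 3-phosphate, made from glucose or pyruvate or by phosphorylating glycerol, and on fatty acids activated to acyl-CoA. Of 10 genes for glycerol 3-phosphate and acyl-CoA supply, 8 were higher and 0 lower, beside 20.2% higher and 21.1% lower over all genes tested (median log2 fold change 0.27, all genes -0.005). Pck1, which feeds glyceroneogenesis, went from 14.4 ± 0.79 to 38.2 ± 2.95 CPM (SD, n = 3; log2 1.41 ± 0.07 SE, edgeR adjusted p = 7.08e-15). The glycerol kinase gene Gk rose by 0.74 ± 0.045 on the log2 scale and Aqp7, the glycerol channel of fat cells, by 0.28 ± 0.07. Acsl1, the main acyl-CoA synthetase of adipocytes, rose from 2712 ± 20.7 to 3256 ± 28.7 CPM. The glycerol 3-phosphate dehydrogenase gene Gpd1 rose from 3656 ± 125 to 5668 ± 129 CPM (log2 0.63 ± 0.035, edgeR adjusted p = 3.35e-14). Acsl3 rose by 0.34 ± 0.05 and Acsl5 by 0.14 ± 0.05. Gpd1l and the fatty acid transporter Slc27a1 did not pass (0.064 ± 0.055 and 0.04 ± 0.04), and the call of Acsl4 was lost under DESeq2 (adjusted p = 0.0836).

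Of the other acyltransferases of glycerolipids, 2 of the 7 that could be tested rose and 2 fell (median -0.10), shares near the 20.2% and 21.1% of all genes, so the list as a whole gives no result. Agpat4, an AGPAT best known from brain, fell from 17.5 ± 1.41 to 11.6 ± 1.00 CPM (log2 -0.585 ± 0.094, edgeR adjusted p = 1.04e-05). Lpgat1 fell slightly (-0.12 ± 0.035), and Mboat2 rose from 0.57 ± 0.27 to 1.44 ± 0.31 CPM (log2 1.31 ± 0.36, edgeR adjusted p = 0.00444). The Mboat2 call rests on few counts, 24, 12 and 10 in control and 29, 34 and 28 in U-IRX3ov libraries. The monoacylglycerol route had almost no RNA, with at most 5 counts of Mogat1 and 6 of Mogat2 in any library. Of 9 tested phosphatidate phosphatases outside the lipins and diacylglycerol kinases, 4 were lower and 1 higher, beside 21.1% and 20.2% of all genes (median -0.12). The lipid phosphate phosphatase genes Plpp1 (-0.39 ± 0.06) and Plpp3 (-0.235 ± 0.036) and the kinase genes Dgkz (-0.31 ± 0.06) and Dgkh (-0.24 ± 0.07) fell, and Dgkd (0.43 ± 0.04) rose. In the same libraries fibroblast markers had a median of -0.61, and their part in these changes was not tested.

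Phosphatidic acid and diacylglycerol also feed membrane phospholipids, and 5 of 13 tested genes of that branch were higher and 2 lower, beside 20.2% and 21.1% of all genes (median 0.10). Pcyt2, the rate-setting enzyme of phosphatidylethanolamine synthesis from diacylglycerol, went from 93.0 ± 4.47 to 152 ± 2.69 CPM (log2 0.71 ± 0.04, edgeR adjusted p = 8.13e-14). The choline phosphotransferase gene Chpt1 rose by 0.31 ± 0.04 and Etnk1 by 0.23 ± 0.04. Cds2 (-0.25 ± 0.04) and Pgs1 (-0.18 ± 0.05), which lead from phosphatidic acid towards phosphatidylinositol and cardiolipin, fell. The calls of Pcyt1a and Pemt were lost under DESeq2 (adjusted p = 0.0582 and 0.11), which left 3 of 13 higher, a share near that of all genes.

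Of 5 tested genes for lipin control and droplet assembly 2 were higher and 0 lower, beside 20.2% and 21.1% of all genes (median 0.15), too few genes to set the list apart. Seipin (Bscl2), which shapes droplets at the endoplasmic reticulum and binds AGPAT2 and lipin 1, rose by 0.30 ± 0.04, and the triglyceride-binding protein gene Fitm2 by 0.15 ± 0.035 (edgeR adjusted p = 0.00135). The lipin phosphatase subunit Cnep1r1 did not pass (-0.12 ± 0.07). Its catalytic partner Ctdnep1 had 14, 13 and 113 counts in control and 18, 15 and 107 in U-IRX3ov libraries. The libraries numbered 3 stood apart in both groups, and no direction can be read from it. Triglyceride breakdown had 5 of 7 tested genes higher and 0 lower, beside the same 20.2% and 21.1% (median 0.28). Ces1d (0.59 ± 0.05) and the hormone-sensitive lipase gene Lipe (0.53 ± 0.03) rose most. Pnpla2 (0.24 ± 0.03), the first lipase of the pathway, its activator Abhd5 (0.28 ± 0.035) and its inhibitor G0s2 (0.49 ± 0.04) rose too. The monoglyceride lipase Mgll did not pass (-0.04 ± 0.03). All 8 listed transcriptional regulators of lipid metabolism were higher, beside the same 20.2% and 21.1% (median 0.65). The largest changes were those of Ppara (1.44 ± 0.05) and the coactivator gene Ppargc1a (1.17 ± 0.08), both partners of lipin 1. Mlxipl (0.89 ± 0.04), Cebpb (0.68 ± 0.04) and Pparg (0.61 ± 0.04) followed. Srebf1 (0.351 ± 0.035), Nr1h3 (0.208 ± 0.045) and Cebpa (0.18 ± 0.04) rose least. Scaling by library totals alone changed several of these counts: 6 rather than 8 supply genes and 7 rather than 8 regulators were then higher, 4 rather than 2 of the other acyltransferases lower, the phospholipid branch had 3 higher and 4 lower, droplet assembly 1 higher and 2 lower, and breakdown 1 lower.

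**Figure D4:**
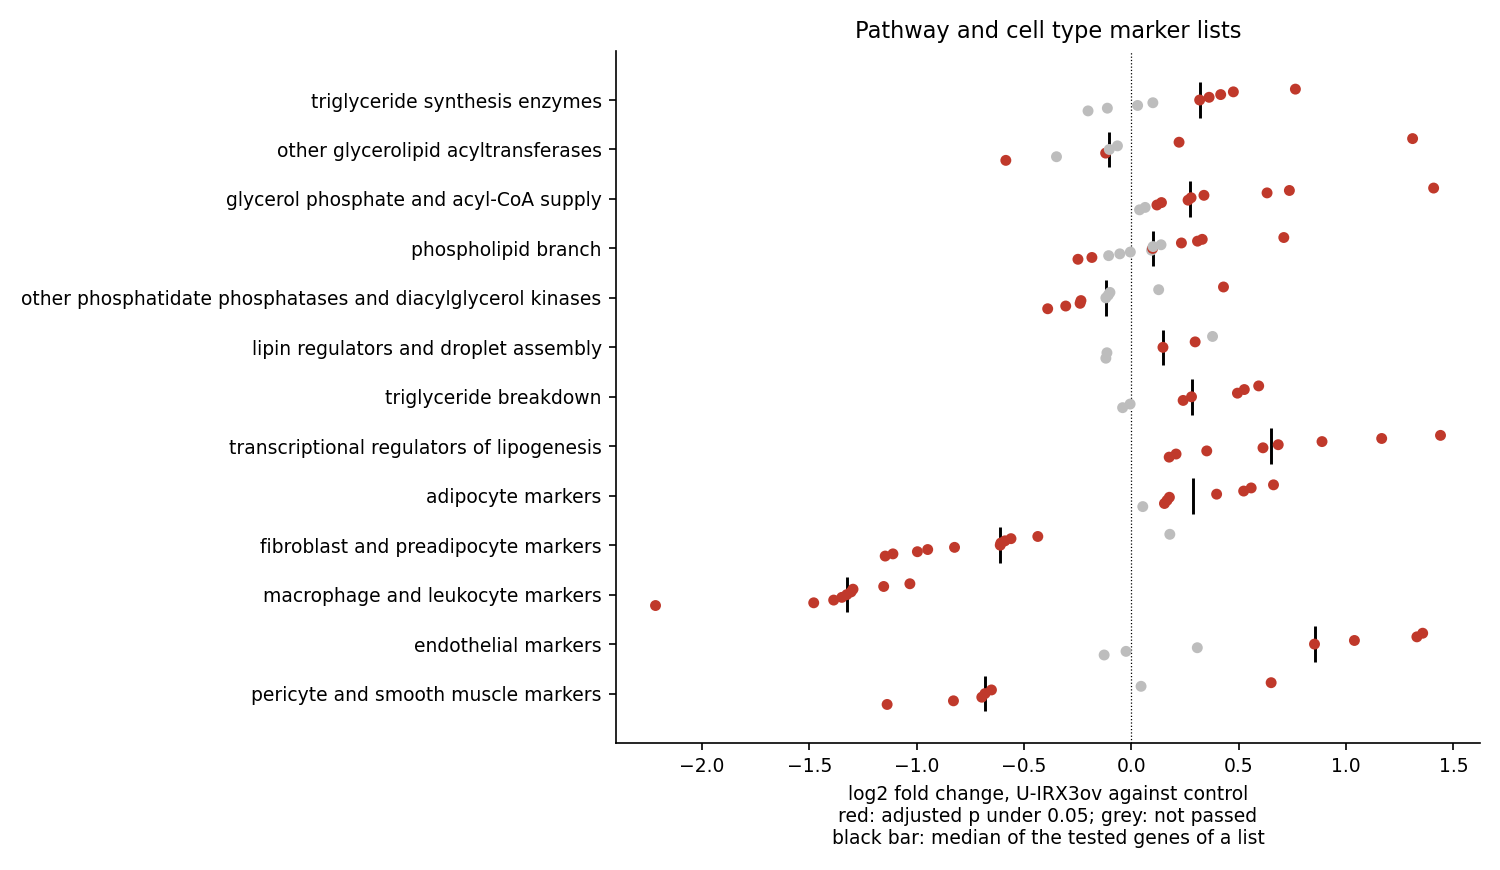
Log2 fold change of U-IRX3ov against control (horizontal axis) for each tested gene of the pathway lists and cell type marker lists, red where the adjusted p was under 0.05, with a black bar at the median of a list. The synthesis enzymes have a median of 0.32, the supply genes 0.27 and the breakdown genes 0.28, beside 0.29 for adipocyte markers, -0.61 for fibroblast markers and -1.33 for macrophage markers.

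A search for genes of like pattern over the 6 libraries, by the root mean square difference of centred log2 CPM, began from 8987 genes of at least 10 CPM. Genes of the pathway and marker lists and predicted gene models were then left out. Of those kept, the closest to Lpin1 were Echs1 (0.0167), D10Jhu81e (0.0208) and Ppp2r5a (0.0217). Echs1, an enoyl-CoA hydratase of mitochondrial fatty acid oxidation, had a log2 fold change of 0.755 ± 0.037 (SE), beside 0.764 ± 0.035 for Lpin1. For Lpin3, which had the lowest log2 fold change of the enzymes, the closest of the genes kept were Akr1b3 (0.0275), Steap2 (0.0383) and Rps3a1 (0.0513). These distances describe 6 libraries of 2 groups, and those from Lpin1 are mostly set by the difference between the groups. The groups of Lpin3 overlapped and its change did not pass, so its distances rest also on the spread within groups.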

How the data were processed

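RNA of 6 libraries of induced brown adipocytes was sequenced, and the deposited file gives counts by gene symbol for every library (whole numbers, with no normalization visible in the values). The submitters' processing notes name HISAT2 2.0.4 and mm10. Which program counted reads, on what annotation and with what strand setting, is not given in the sources used here, so genes that overlap or have close copies are uncertain.

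Groups came from the titles. Low genes were removed with filterByExpr, leaving 14757 genes. TMM scaling and the robust quasi-likelihood F test of edgeR 4.0.16 (R 4.3.3) were used on group alone, with Benjamini-Hochberg adjustment over all of them. Every adjusted p is from that test unless DESeq2 is named. SE values are log2 fold changes over the root of F, and 95% intervals used 4 residual degrees of freedom. The edgeR test shares variance across genes, so its p-values rest on more degrees of freedom than these intervals. The fit was tested on simulated data. Exon lengths and positions came from GENCODE M21 (GRCm38, the assembly of mm10), promoters from RefSeq. Ratios between genes were tested by exact permutation of libraries. No libraries were duplicates: chi-square per degree of freedom was 3.02 to 5.20 within groups.

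The enzymes and lists were chosen with earlier results of these data known. The rule named all 10 enzymes, list genes that passed or on which a count turned, and 1 defining gene of a marker list. For the enzymes with the largest and smallest log2 fold change it named the 3 genes of closest pattern outside the lists, predicted gene models left out. Agpat9, Mogat1, Mogat2, Gpd1l, Slc27a1, Cnep1r1, Ctdnep1, Mgll, Cd79a, Acta1, Des, Acta2, Cspg4, Rgs5 and Notch3 fall outside it and were named after their values were seen. Also outside it are Irx3, the genes Egfl7 and Gm35934 that share exon bases with enzymes, and the Agpat1 neighbours Pbx2, Atf6b, Rnf5 and Tnxb. Alternatives were DESeq2 size factors, library totals, no filter on low counts, DESeq2 1.42.0, limma-voom (limma 3.58.1), the replicate number as a block and leaving out each library.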

Additional observations from a re-analysis of the deposited data

How the results depend on the processing

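The 5 enzymes that rose stayed past the threshold and higher in all 60 refits (12 alternatives for each), with a largest adjusted p of 5.68e-06. Over these alternatives the log2 fold change of Lpin1 ran from 0.67 to 0.79, that of Agpat2 from 0.38 to 0.50 and that of Dgat1 from 0.32 to 0.43. Scaling by library totals alone moved the median of all genes to -0.10, with 1935 genes higher and 4670 lower in place of 2978 and 3120. There 2 enzymes were lower, Lpin2 and Lpin3, and Dgat2 had a log2 fold change of -0.067. Without 1 library Dgat2 ran from -0.003 (without U-IRX3ov replicate 3) to 0.070, so its direction is not resolved. Under that scaling 4 of the other acyltransferases, 4 of the phospholipid branch, 2 of droplet assembly and 1 of breakdown were lower, and 3 of the phospholipid branch and 1 of droplet assembly higher. DESeq2 left 3 of the phospholipid branch higher. Without 1 library the Lpin1 to Lpin2 change ran from 0.84 to 0.92 and the Dgat2 to Dgat1 change from -0.42 to -0.35. The same numbers in both groups do not pair the libraries by the labels. The deviations of same-numbered libraries correlated by 0.0222, 0.0745 and 0.0514, each library most with its own number. With the replicate number as a block 5 enzymes were higher and 0 lower, with 3014 genes higher and 3159 lower over all, and the paired ratio changes were the same (exact sign-flip p = 0.25, the smallest 3 pairs allow). Counts limit Lpin3 (146 to 281 a library) and leave Agpat1 unmeasured.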
